A study of Mus musculus with 18 samples.

Results

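Neutrophil granule and calprotectin genes were followed through 18 lung metastases. The set held 10 named genes of the 49585 in the deposited count table, and it was read in every lesion by mouse and treatment. Camp, Ngp and Ltf, whose proteins developing neutrophils fill into their granules before they leave the marrow, were kept apart as immature granule genes. S100a8, S100a9, Retnlg, Csf3r, Ly6g, Asprv1 and Slfn4 were read as mature neutrophil genes. The 10 genes were chosen because they differed between the treatment groups in these same lesions, so every value that compares mice given NK cells with control mice is a description, with no test.

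The lesions came from AT3 cells, a mammary carcinoma line that carried GFP and mCherry, placed in the mammary fat pad and left to seed the lungs. The animals given NK cells were NK2 (4 lesions) and NK1 (3 lesions), each with 60000 activated mouse cells by vein on day 11. The control animals, labelled Ctrl, were KO2 (4 lesions), KO3 (2 lesions) and KO1 (5 lesions), which received PBS. All 5 mice share the strain label Rag2-/-IL2rg-/-, although Rag1-/- and not Rag2-/- is written in the growth protocol, and no age is given. NK cell recipients and controls alike thus lack T, B and NK cells of their own and keep their own myeloid cells. Fluorescent lesions were cut by laser from frozen lung sections. A lesion is written here as mouse and lesion number, so that KO3-2 is lesion 2 of KO3.

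Neutrophils are short-lived white cells that leave the marrow with ready-made granules. Their granules are filled in sequence as the cell matures, so transcripts of granule proteins are highest in marrow precursors, while blood and tissue neutrophils carry much calprotectin message. Calprotectin, the pair of S100A8 and S100A9, binds calcium and the metal ions that microbes need, and is released at sites of inflammation. In tumour-bearing lungs, neutrophils are a known part of the metastatic environment.

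Libraries held 2964242 to 11798897 counts in lesions with NK cells, against 5690467 to 9816244 in control lesions. A lesion with NK cells had counts in 13493 to 18662 genes, against 13974 to 19222 genes for a control lesion. The mitochondrial ribosomal RNA mt-Rnr2 took over 40% of the counts in 6 lesions: all 3 of NK1 (47.56% to 65.3%), and KO1-2, KO1-5 and KO3-2 among the controls. It took 13.68% to 22.84% in NK2, 12.08% to 24.4% in KO2 and 22.83% to 68.7% in KO1. The shares were graded across the limit of 40%, with KO3-1 at 35.78% and KO3-2 at 44.05%. The RNA is that of whole captured tissue, so fewer neutrophils and less of a transcript per neutrophil cannot be told apart in any value that follows.

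The 10 genes were compared first by their sequence upstream of the start. S100a8 and S100a9 lie side by side on chromosome 3, and Camp, Ngp and Ltf lie on chromosome 9. RefSeq (GRCm38.p6) gave a start for all 10 genes, with 11 starts in all, and the 250 bases before each were searched on both strands for TTNNGNAA, a loose form of the element bound by C/EBP factors, and for GAGGAA, the core bound by PU.1. TATAAA was searched on the gene's strand. The stretches shown are those of the calprotectin pair and of the 2 immature granule genes with matches, 5′ to 3′ on the gene's strand, with the matches in capitals, and they end where GENCODE M21 begins the gene.
S100a9: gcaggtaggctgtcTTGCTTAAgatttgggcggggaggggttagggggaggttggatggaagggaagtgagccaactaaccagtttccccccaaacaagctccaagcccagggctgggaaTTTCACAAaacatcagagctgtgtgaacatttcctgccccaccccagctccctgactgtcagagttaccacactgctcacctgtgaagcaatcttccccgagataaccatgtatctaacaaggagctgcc
S100a8: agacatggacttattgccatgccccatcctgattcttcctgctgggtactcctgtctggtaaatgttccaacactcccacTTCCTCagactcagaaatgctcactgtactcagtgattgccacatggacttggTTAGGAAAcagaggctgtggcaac
Ltf: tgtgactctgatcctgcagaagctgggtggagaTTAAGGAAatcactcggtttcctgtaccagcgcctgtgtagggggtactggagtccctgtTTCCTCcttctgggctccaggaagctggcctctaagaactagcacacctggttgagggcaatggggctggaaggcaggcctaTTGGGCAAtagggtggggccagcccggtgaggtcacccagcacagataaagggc
Ngp: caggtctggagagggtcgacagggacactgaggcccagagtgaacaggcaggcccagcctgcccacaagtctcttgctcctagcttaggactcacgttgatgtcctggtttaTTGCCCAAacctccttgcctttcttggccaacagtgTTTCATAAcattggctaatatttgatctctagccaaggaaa
They cover chr3:90695722-90695971 (minus strand) for S100a9, chr3:90668821-90668977 (plus strand) for S100a8, chr9:111019042-111019270 (plus strand) for Ltf and chr9:110419558-110419746 (plus strand) for Ngp. S100a9 shows 2 C/EBP matches. S100a8 shows 1 C/EBP match and 1 PU.1 match, and its window goes on past the stretch shown to a further PU.1 match and a TATA match 30 to 25 bases before the RefSeq start. Ltf shows 2 C/EBP matches with a PU.1 match between them, and Ngp 2 C/EBP matches, with 1 more nearer the RefSeq start. No base of the 11 windows lay in more than 1 match.

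Over the whole set, 7 of 10 genes held a C/EBP match, against 36.8% of 32851 RefSeq promoters of the same length. PU.1 matches were found for 4 genes, Ltf, S100a8, Csf3r and Ly6g, against 23.3% of promoters. TATAAA was found for 3, S100a8, Ly6g and Slfn4, against 7.59%. Camp and Asprv1 held none of the 3. A match is a stretch of letters, and binding was not measured.

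Among the immature granule genes, Camp had the largest difference of the 10 genes, Ngp one like those of the mature genes, and Ltf a value that hung on 1 lesion. Camp encodes the antimicrobial peptide CRAMP (chromosome 9, 109847379 to 109849617, minus strand). It had 0.821 CPM in NK2 and 0.0952 CPM in NK1, against 89.4 CPM in KO2, 51.7 CPM in KO3 and 1.70 CPM in KO1, where CPM is the count scaled to a library of fixed size, here summed over a mouse's lesions. The scaling uses TMM-adjusted library sizes and not total counts, which raises CPM in lesions of high mt-Rnr2: the 235 counts of S100a9 in KO1-5 became 113 CPM. By lesion it ran from 0 over a median of 0.160 to 1.64 CPM with NK cells, and from 0.479 over 9.39 to 216 CPM in controls. Lesions with NK cells held 47 counts of Camp in all, against 4729 for control lesions, of which 3007 came from KO2-2. The mice did not overlap, and 8 of 11 control lesions lay above every lesion with NK cells. The log2 fold change of mice with NK cells over control mice was -6.45 ± 1.77 (SE, 2 against 3 mice). Every SE here was worked back from the F value of the edgeR fit.

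Ngp encodes neutrophilic granule protein, a cathelin-like granule component found in mice (chromosome 9, 110419747 to 110423012, plus strand). Its level was 3.93 CPM in NK2 and 1.05 CPM in NK1, against 32.9 CPM in KO2, 30.1 CPM in KO3 and 4.84 CPM in KO1. Lesions with NK cells ran from 0 over 1.76 to 6.44 CPM, and control lesions from 0.958 over 8.66 to 85.0 CPM. Lesions NK1-2 and NK1-3 held 0 counts of both Camp and Ngp. All 4 lesions of KO2 and both of KO3 were above every lesion with NK cells, while the lesions of KO1 fell within their range. The log2 fold change of Ngp was -3.14 ± 0.97.

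Ltf, which encodes the iron-binding lactoferrin of specific granules and is also made by gland epithelia (chromosome 9, 111019271 to 111042767, plus strand), went apart from the other 2. Its level was 3.64 CPM in NK2 but 452 CPM in NK1, against 91.0 CPM in KO2, 323 CPM in KO3 and 42.4 CPM in KO1. The value of NK1 was that of 1 lesion. NK1-1 held 4732 of the 4949 Ltf counts with NK cells, or 95.6%, at 756 CPM, while the other 6 lesions with NK cells lay between 0 and 9.64 CPM. In that lesion Camp had 1 count and Ngp 11, and S100a8 and S100a9 together had 533. Control lesions ran from 2.50 over 50.8 to 655 CPM, and the log2 fold change of Ltf was 0.58 ± 1.53 over all lesions and -5.41 without NK1-1.

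Other transcripts stood high in NK1-1 beside Ltf. Retn, which encodes the fat cell hormone resistin, had 1545 of its 1546 counts with NK cells there, and the basal epithelial keratin Krt15 had 399 of 411. Those 2 genes were chosen after their values were seen. Over the 10 epidermal markers, of which Lor, Flg and Krtdap were at 0 in every lesion, the summed level was 68.7 CPM in NK1-1 and 0.616 to 12.1 CPM in the other 6 lesions with NK cells, against 0.345 to 189 CPM in controls. Krt15 is 1 of these markers, and the other 9 summed to 4.95 CPM in NK1-1 and 0.616 to 2.93 CPM in the other 6. The highest sum of all 10, 189 CPM, was in KO3-2, which also had the highest control value of Ltf. The part of other cell types in the Ltf values was not tested.

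Among mature genes, S100a9 (chromosome 3, 90692632 to 90695721, minus strand) and S100a8 (chromosome 3, 90668978 to 90670035, plus strand) encode the 2 chains of calprotectin and lie 22597 bases apart. S100a9 had 109 CPM in NK2 and 54.9 CPM in NK1, against 944 CPM in KO2, 1550 CPM in KO3 and 106 CPM in KO1. Lesions with NK cells ran from 39.3 over 68.3 to 161 CPM and control lesions from 76.1 over 525 to 3046 CPM. The 6 lesions of KO2 and KO3 were above every lesion with NK cells, and KO1 lay level with NK2. Its log2 fold change was -3.40 ± 1.06.

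S100a8 followed the same order of mice. It had 45.9 CPM in NK2 and 16.9 CPM in NK1, against 303 CPM in KO2, 371 CPM in KO3 and 44.6 CPM in KO1. Its lesions ran from 5.02 over 30.9 to 50.4 CPM with NK cells and from 31.1 over 146 to 585 CPM in controls, with 7 of 11 control lesions above every lesion with NK cells. The log2 fold change was -2.93 ± 0.93.

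Slfn4, a Schlafen family gene that interferon and macrophage activation raise in mouse myeloid cells (chromosome 11, 83175186 to 83190216, plus strand), had 48.5 CPM in NK2 and 30.4 CPM in NK1, against 535 CPM in KO2, 454 CPM in KO3 and 41.1 CPM in KO1. Its 6 lesions of KO2 and KO3 held 213 to 771 CPM and all other lesions at most 90.6 CPM, the level of NK2-1. The log2 fold change was -3.12 ± 1.01. Slfn4 is the least certain of the set by counting, since its estimated count was fractional in 16 of 18 lesions, which RSEM gives where reads map to more than 1 gene. For Ly6g this held in 4 lesions and for Csf3r and Retnlg in 1 each, while the other 6 genes had whole counts throughout, and no member overlapped another gene.

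Retnlg, a resistin-like gene of mouse neutrophils (chromosome 16, 48872621 to 48874496), had 7.65 CPM in NK2 and 2.00 CPM in NK1, against 53.9 CPM in KO2, 106 CPM in KO3 and 8.44 CPM in KO1. Lesions with NK cells ran from 0 over 3.86 to 9.51 CPM and control lesions from 3.75 over 31.0 to 180.1 CPM. Its log2 fold change was -3.50 ± 1.11. Csf3r, the receptor for the growth factor G-CSF that drives neutrophil output (chromosome 4, 126024550 to 126044440), had 41.4 CPM in NK2 and 25.8 CPM in NK1, against 190 CPM in KO2, 237 CPM in KO3 and 55.8 CPM in KO1. Its lesions ran from 8.78 over 43.2 to 67.3 CPM with NK cells and from 26.8 over 107 to 470.1 CPM in controls. Both genes had mice that did not overlap and 8 of 11 control lesions above every lesion with NK cells. The log2 fold change of Csf3r, -2.26 ± 0.65, was the smallest of the mature genes.

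Ly6g, which encodes the surface antigen used to mark mouse neutrophils (chromosome 15, 75155240 to 75159126), had few counts. Its level was 1.195 CPM in NK2 and 0.190 CPM in NK1, against 10.1 CPM in KO2, 10.6 CPM in KO3 and 1.002 CPM in KO1. Lesions with NK cells gave 69 counts of Ly6g in all, against 617 from control lesions. Its 2 counts in NK1 all lay in NK1-1, and by lesion it ran from 0 over 0.562 to 2.60 CPM with NK cells and from 0.0955 over 5.58 to 17.2 CPM in controls. Asprv1, a retroviral-like aspartic protease known from skin and also carried by mouse neutrophils (chromosome 6, 86628164 to 86629710), had 4.71 CPM in NK2 and 3.43 CPM in NK1, against 45.9 CPM in KO2, 39.6 CPM in KO3 and 7.57 CPM in KO1. Its lesions ran from 1.61 over 4.18 to 5.85 CPM with NK cells and from 3.35 over 16.01 to 62.5 CPM in controls, with 9 of 11 control lesions above every lesion with NK cells. The log2 fold changes were -3.29 ± 1.25 for Ly6g and -2.92 ± 0.80 for Asprv1.

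**Figure D1:**
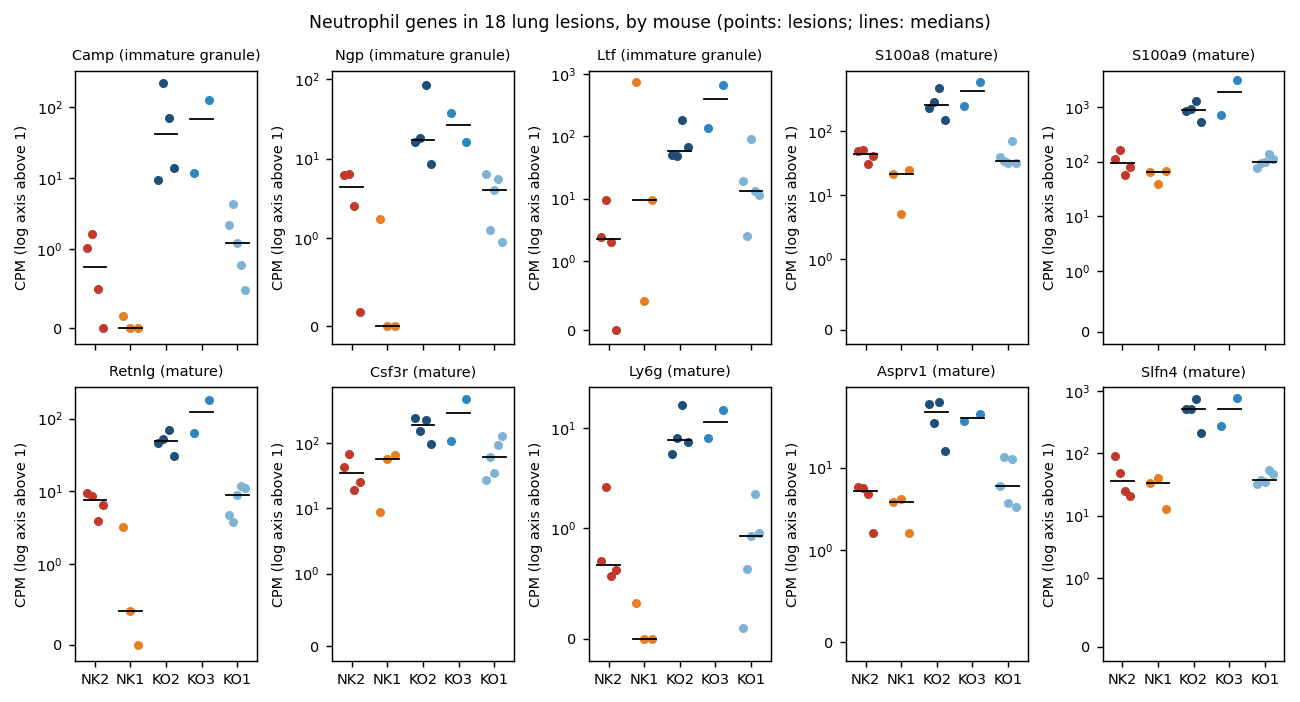
Level of each gene in CPM (log axis above 1) in every lesion of the 5 mice, with NK2 and NK1 left of the controls KO2, KO3 and KO1, and lines at medians over lesions. By these medians KO2 and KO3 stand above the others for every gene. For Ltf the lesion NK1-1, at 756 CPM, is the highest of all.

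Counted over the set, 9 of 10 genes had a negative log2 fold change, where 51.7% of 16920 genes did. The median was -3.14 over the 3 immature genes, -3.12 over the 7 mature genes and -0.03 over all genes tested. In 5 of 10, Camp, Ngp, Retnlg, Csf3r and Asprv1, both mice with NK cells lay below all 3 control mice, as was so for 6.87% of genes, and in 0 of 10 both lay above all 3 (7.94% of genes). Since the set was chosen on this contrast, nothing is read from these counts. The quasi-likelihood test of edgeR called 0 of 16920 genes in it (0%), with 426 at an unadjusted p under 0.05 (2.52%), and DESeq2 called 39 (0.222%). Of the 10 genes, 8 were called without a filter on low counts, where 224 genes were (0.855%). Camp alone was called in DESeq2 and with the host number as a replicate block, where 7 genes were (0.0414%), and nothing is read from these calls either. Without the 6 lesions of high mt-Rnr2, which removes NK1 altogether and leaves NK2 alone against 3 controls, the log2 fold changes were -5.39 for Camp, -2.71 for Ngp, -4.70 for Ltf and -2.69 to -1.50 for the 7 mature genes.

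**Figure D2:**
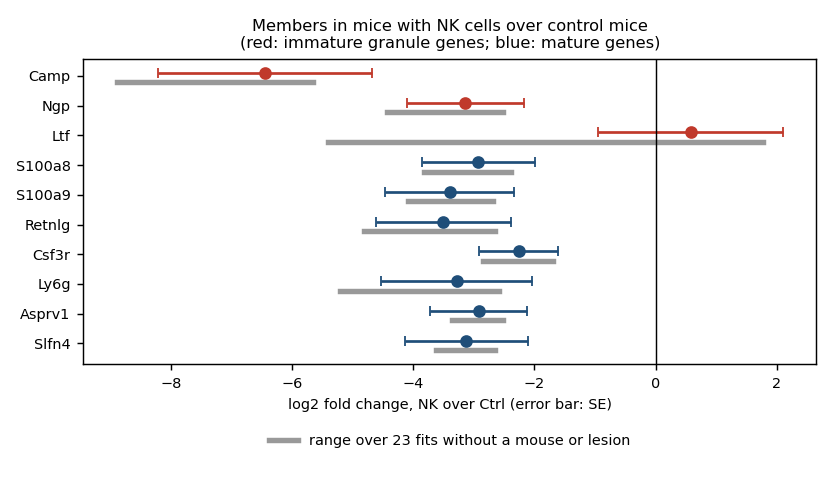
Log2 fold change of each gene in mice with NK cells over control mice (points, 2 against 3 mice), with the SE worked back from the edgeR F value. Grey bars give the range over 23 refits, each lacking 1 mouse or 1 lesion. The grey bars of 9 genes stay below 0, and that of Ltf runs from -5.41 to 1.78.

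Of the 10 genes, 7 differed among the control mice in edgeR, and 4 of them did so in every refit lacking 1 lesion. This comparison asked whether lesions of a control mouse resembled each other more than those of another, over 11 lesions that all received PBS. Its p-values treat the lesions of a mouse as replicates and so speak of these 3 mice, not of treatment. The low level of neutrophil genes in KO1 was known when the genes were chosen, so these tests are no independent evidence of it.

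S100a9 gave 842, 906, 1251 and 525 CPM in the 4 lesions of KO2 and 713 and 3046 CPM in those of KO3, against 76.1, 93.4, 97.0, 138 and 113 CPM in the 5 of KO1. The groups did not overlap, and the lowest lesion of KO2 was well above the highest of KO1. Its log2 fold change was 3.10 for KO2 over KO1 and 4.17 for KO3 over KO1 (edgeR, adjusted p = 0.00340). Slfn4 gave 3.63 and 3.66 (adjusted p = 0.00340 in edgeR), S100a8 2.79 and 3.32 (adjusted p = 0.00526) and Retnlg 2.66 and 3.90 (adjusted p = 0.00526), for KO2 and then KO3 over KO1 in the edgeR fit.

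In all, 6 of 7 mature genes and 1 of 3 immature genes passed at an adjusted p of 0.05, where 2.71% of 14654 genes did. All 7 were lowest in KO1, a direction that came with a call in 1.19% of 14632 genes tested in both fits. Since the low level in KO1 was known when the genes were chosen, nothing is read from these counts against those shares. Camp passed with log2 fold changes of 5.45 for KO2 and 5.22 for KO3 over KO1 (edgeR, adjusted p = 0.0313), Asprv1 with 2.47 and 2.34 (adjusted p = 0.0407) and Ly6g with 3.29 and 3.54 (adjusted p = 0.0435). Ngp (3.04 and 2.78, edgeR adjusted p = 0.0641), Ltf (1.65 and 3.81, adjusted p = 0.0730) and Csf3r (1.40 and 2.06, adjusted p = 0.111) did not pass.

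S100a8, S100a9, Retnlg and Slfn4 were called in each of 11 refits, each lacking 1 control lesion. The calls of the other 3 were each lost in several of these refits. Camp was not called without KO1-1, KO1-3, KO1-4, KO1-5, KO2-2 or KO2-3 (edgeR, adjusted p up to 0.0781). Ly6g was called in 2 of the 11 fits, without KO1-4 or KO3-1 (adjusted p up to 0.0959 in the others), and Asprv1 in 2, without KO2-4 or KO3-1 (adjusted p up to 0.0913 in the others). Without KO3-1, without KO3-2 or without the 3 control lesions of high mt-Rnr2, KO3 was left with 1 lesion. Nothing is read from the number of genes called in those fits.

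**Figure D3:**
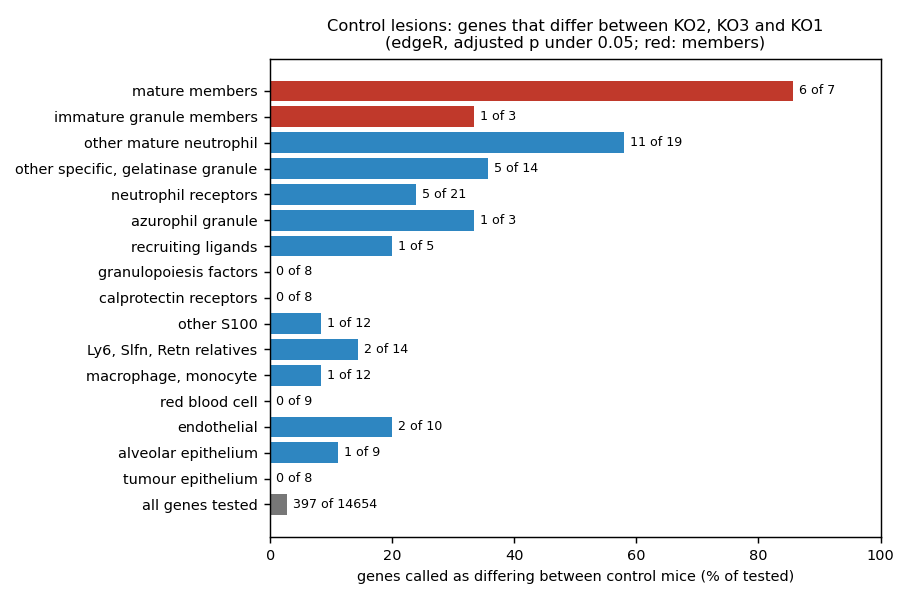
Share of tested genes in each list that edgeR called as differing between the control mice KO2, KO3 and KO1 (adjusted p under 0.05), with counts beside the bars. The 7 mature genes stand at 6 called, the other mature neutrophil genes at 11 of 19, and all genes at 397 of 14654.

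Between the mice with NK cells, edgeR called 0 of 13400 genes (0%), with 2299 (17.2%) at an unadjusted p under 0.05, and DESeq2 called 987. Camp and Ly6g had too few counts to be tested. NK2 lay above NK1 for 6 of the other 8 genes, with log2 fold changes of NK2 over NK1 from 0.50 ± 0.71 (SE) for Asprv1 to 2.33 ± 1.37 for Ngp. S100a8 gave 1.39 ± 0.55 and S100a9 0.91 ± 0.45. Csf3r gave -0.08 ± 0.69, well within its SE, although its level by mouse was higher in NK2. Ltf gave -6.10 ± 2.04, through lesion NK1-1. None of the 8 passed (edgeR, lowest adjusted p = 0.207, for Ltf), and none of the 10 passed in DESeq2.

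Divided by transcript length, S100a9 was the most abundant of the set in both groups. Its mean over mice was 157 ± 73.4 CPM per kilobase with NK cells (SD, n = 2) and 1660 ± 1390 in controls (SD, n = 3). In controls S100a8 came next at 345 ± 248 CPM per kilobase, then Retnlg (94.5 ± 82.1), Slfn4 (86.6 ± 66.8), Camp (62.8 ± 58.0), Csf3r (44.5 ± 26.0), Ltf (44.1 ± 43.5), Asprv1 (20.1 ± 13.3), Ngp (18.5 ± 12.6) and Ly6g (7.67 ± 5.73). Each step in that order was smaller than the larger SD of its 2 neighbours, except the step from S100a8 to Retnlg. Among 16884 genes ranked per length, S100a9 stood at rank 151 in NK2 and 277 in NK1, against rank 14 in KO2, 15 in KO3 and 130 in KO1. With NK cells Camp was last of the 10, at 0.604 ± 0.677 CPM per kilobase.

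The ratio of the calprotectin chains varied less over the mice than their levels did. S100a9 had 2.38 counts per count of S100a8 in NK2 and 3.24 in NK1, against 3.12 in KO2, 4.18 in KO3 and 2.37 in KO1. By lesion the ratio ran from 1.82 to 7.83, and the highest came from NK1-2, with 94 counts of S100a9 over 12 of S100a8. Camp and Ngp together made 3.06% of the calprotectin counts in NK2 and 1.59% in NK1, against 9.81% in KO2, 4.26% in KO3 and 4.36% in KO1. The lesions of KO2 ran from 2.37% to 19.6%, the highest in KO2-2, and mice overlapped in lesions: NK2 reached 4.55% and KO1 went down to 1%. With Ltf added, the 3 immature genes made 5.41% in NK2 and 630% in NK1, against 17.1% in KO2, 21.1% in KO3 and 32.6% in KO1. Single lesions set the values of NK1, which had 5.86% without NK1-1, and of KO1, which had 13.8% without KO1-3.

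Csf3r made the smallest share of S100a9 counts in the mice with the most S100a9. The share was 38.0% in NK2 and 47.0% in NK1, against 20.1% in KO2, 15.3% in KO3 and 52.9% in KO1. Slfn4 made 44.4% in NK2 and 55.3% in NK1, against 56.7% in KO2, 29.3% in KO3 and 38.9% in KO1, with no order by group. Asprv1 made 4.32% in NK2 and 6.24% in NK1, against 4.86% in KO2, 2.55% in KO3 and 7.18% in KO1. These ratios were not tested.

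**Figure D4:**
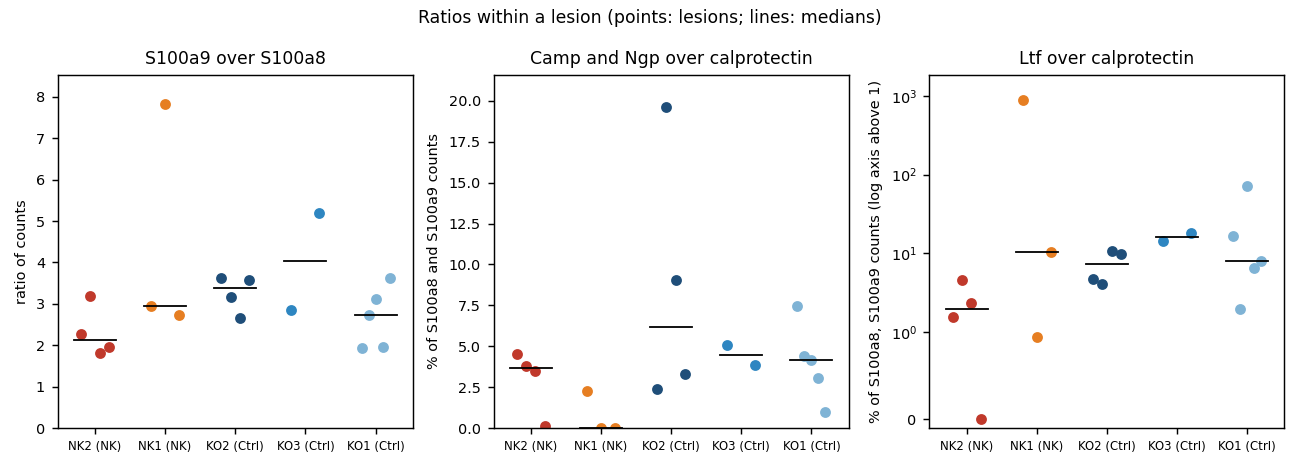
Ratios of counts within each lesion, by mouse with NK cells (NK2, NK1) and control mouse (KO2, KO3, KO1), with lines at medians: S100a9 over S100a8, Camp and Ngp as a percentage of calprotectin counts, and Ltf as such a percentage on a log axis that is linear below 1. The first ratio spans 1.82 to 7.83, and the last has NK1-1 far above all other lesions.

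Across the 18 lesions, which share mice and differ in depth, mature genes ran closely together. Spearman's rho of log2 CPM between pairs of mature genes went from 0.68 (Csf3r with Asprv1) over a median of 0.85 to 0.96 (S100a9 with Ly6g) over 21 pairs. Camp and Ngp gave 0.90 with each other, while Ltf gave 0.58 with Camp and 0.63 with Ngp. Between immature and mature genes rho had a median of 0.80 over 21 pairs and was lowest for Ltf with Csf3r, at 0.43. Camp was closest to Asprv1 (0.88) and Ngp to S100a8 (0.88). Both were nearer to each mature gene than to Ltf, except Ngp to Csf3r (0.62).

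Outside the set, the genes most like the 7 mature genes over the 18 lesions, by Spearman's rho with their mean standardized log2 CPM, were Nfam1 (0.95), a receptor of myeloid and B cells, and Cxcr2 (0.93), the receptor through which CXC chemokines draw neutrophils. Prok2, a secreted chemoattractant peptide, and the paired-type receptor Lilra6 followed at 0.90 each, and then Dusp5, AB124611, Coro1a, Cd244a, Il1f9 and Lrmp at 0.89 to 0.90. Prok2 had 1.07 CPM in NK2 and 0 CPM in NK1, against 11.6 CPM in KO2, 19.0 CPM in KO3 and 0.501 CPM in KO1. The genes most like the 3 immature genes were Steap4 (0.87), Ifitm1 (0.86), the gelatinase gene Mmp9 (0.86), Siglece (0.85), Lst1 (0.85), the peptidoglycan-binding granule protein gene Pglyrp1 (0.84), Rab5if, AI467606, Itgb2l and Chmp6 (0.83). Mmp9 had 54.8 CPM in NK2 and 19.2 CPM in NK1, against 235 CPM in KO2, 249 CPM in KO3 and 62.8 CPM in KO1.

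Other neutrophil genes were read by role, from lists chosen with earlier results of these data known. Over all genes tested, 51.7% of 16920 had negative log2 fold changes, and 2.71% of 14654 differed between control mice. A call with KO1 lowest was made for 1.19% of 14632 genes. These shares apply to every list below. Specific and gelatinase granules hold the proteins stored beside lactoferrin and cathelicidin. Of 14 tested genes of that list, 12 had negative log2 fold changes with NK cells over controls (median -1.08), and 5 differed between control mice, all lowest in KO1: Lcn2, an iron-scavenging lipocalin (edgeR, adjusted p = 0.00526), Pglyrp1 (adjusted p = 0.0203), the collagenase Mmp8 (adjusted p = 0.0209), Mmp9 (adjusted p = 0.0473) and the chitinase-like Chil3 (adjusted p = 0.0475). Of these 5, Lcn2 was called in all 11 refits, Pglyrp1 in 8, Mmp8 in 7, and Mmp9 and Chil3 in 2 each. Lcn2 had 59.9 CPM in NK2 and 3.81 CPM in NK1, against 107 CPM in KO2, 362 CPM in KO3 and 43.1 CPM in KO1. Mmp8 had 4.30 CPM in NK2 and 1.14 CPM in NK1, against 26.9 CPM in KO2, 21.3 CPM in KO3 and 3.06 CPM in KO1. Lyz2, which macrophages also express, had 3174 CPM in NK2 and 2033 CPM in NK1, against 2752 CPM in KO2, 2590 CPM in KO3 and 1338 CPM in KO1.

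Azurophil granule genes, which are switched on earliest in the marrow, were mixed. Mpo, the peroxidase that gives pus its colour, gave 62 counts in lesions with NK cells against 50 in control lesions, with 46 of the 62 in NK2-1 and 38 of the 50 in KO2-3. The protease gene Elane gave 24 counts in lesions with NK cells, 22 of them in NK2-1, against 8 in control lesions, 7 of them in KO3-1. Ctsg gave 35 counts in lesions with NK cells, 31 of them in NK2-2, against 15 in control lesions, 13 of them in KO2-3. Bpi was at 0 in every lesion. Of 6 tested genes, 2 had negative log2 fold changes (median 0.34, and -2.48 without mouse NK2), and of 3 tested between control mice 1 passed, the proteoglycan gene Srgn (edgeR, adjusted p = 0.0163), which was lowest in KO1. By level KO1 was the lowest control mouse for 5 of the 6 tested genes, against 25.5% of 16920 genes. Part of this order lay near 0: Elane had 0 CPM in KO1 and 0.0219 CPM in KO2, and Mpo 0.0278 CPM in KO1. Prtn3 gave 42 counts in lesions with NK cells against 184 in control lesions. The call of Srgn was lost without lesion KO2-3 (edgeR, adjusted p = 0.0530).

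Receptors through which neutrophils sense chemokines, bacterial peptides and fungi had negative log2 fold changes in 20 of 21 tested genes (median -1.36), against 51.7% of 16920 genes. Between control mice 5 of 21 differed, against 2.71% of 14654 genes, and all 5 were lowest in KO1. Among them were the formyl peptide receptor Fpr2 (edgeR, adjusted p = 0.00969), the C-type lectins Clec4d (adjusted p = 0.0114) and Clec4e (adjusted p = 0.0281) and the cytokine receptor chain Csf2rb (adjusted p = 0.0318). Fpr2 and Clec4d were called in all 11 refits, Clec4e in 4 and Csf2rb in 2. Cxcr2 did not pass (adjusted p = 0.0531). It had 20.6 CPM in NK2 and 1.81 CPM in NK1, against 83.6 CPM in KO2, 65.4 CPM in KO3 and 14.6 CPM in KO1.

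Of 22 tested other genes of mature neutrophils, 21 had negative log2 fold changes (median -1.59), against 51.7% of 16920 genes. Between control mice 11 of 19 differed, against 2.71% of 14654 genes, and all 11 were lowest in KO1. Among them were Ifitm6, the interleukin-36 gene Il1f9, the oxidase subunit Ncf1, Wfdc21, Acod1, which makes itaconate, Mcemp1, Mxd1, Pram1, Gda and BC100530. Ifitm6 had 2.68 CPM in NK2 and 1.05 CPM in NK1, against 17.4 CPM in KO2, 27.8 CPM in KO3 and 1.84 CPM in KO1 (adjusted p = 0.00526 in edgeR between control mice). Ncf1 had 104 CPM in NK2 and 108 CPM in NK1, against 210 CPM in KO2, 569 CPM in KO3 and 68.5 CPM in KO1. The stefin gene Stfa2 gave 0 counts in lesions with NK cells against 26 in control lesions, and Stfa3 gave 0 in lesions with NK cells against 27 in control lesions. In all 11 refits 5 of the 11 calls were made, among them those of Wfdc21, Ifitm6, Acod1 and Il1f9.

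Of the genes listed for neutrophil recruitment, several had few counts, while C3 and Cxcl12 had many. Il17a was at 0 throughout. Csf3 gave 13 counts in lesions with NK cells against 3 in control lesions, and Cxcl2 gave 26 in lesions with NK cells against 60 in control lesions. Of 9 tested ligands 5 had negative log2 fold changes (median -0.80, and 0.22 without mouse KO3). C3, a complement component, was the 1 of 5 that differed between control mice (edgeR, adjusted p = 0.00792), a call made in all 11 refits. C3 had 73.3 CPM in NK2 and 319 CPM in NK1, against 602 CPM in KO2, 341 CPM in KO3 and 93.7 CPM in KO1. Cxcl12, a chemokine that holds neutrophils in the marrow, had 25.2 CPM in NK2 and 18.7 CPM in NK1, against 16.8 CPM in KO2, 8.35 CPM in KO3 and 16.1 CPM in KO1. None of the 8 tested transcription factors of granulocyte development and none of the 8 receptors to which calprotectin is reported to bind differed between control mice. With 2.71% of 14654 genes called, nothing is read from a 0 in lists of 8. The median log2 fold change with NK cells over controls was -0.22 for the factors (0.01 without mouse KO3) and 0.28 for the receptors (-0.01 without mouse NK1). Runx1, a factor of blood cell formation, had 67.3 CPM in NK2 and 87.5 CPM in NK1, against 44.1 CPM in KO2, 92.6 CPM in KO3 and 89.9 CPM in KO1. Bsg, which encodes the calprotectin receptor basigin, had 155 CPM in NK2 and 125 CPM in NK1, against 170.5 CPM in KO2, 136.4 CPM in KO3 and 130.05 CPM in KO1. Cebpe, the factor that drives specific granule genes, gave 5 counts in lesions with NK cells against 30 in control lesions and was not tested.

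Relatives of the members in their gene families were read in the same way. Of 13 tested other S100 genes 9 had negative log2 fold changes (median -0.45), and 1 of 12 differed between control mice, S100a10 (edgeR, adjusted p = 0.0112, and 0.0519 without lesion KO2-2). S100a6 had 354 CPM in NK2 and 297 CPM in NK1, against 649 CPM in KO2, 293 CPM in KO3 and 391 CPM in KO1. Among 15 tested Ly6, Schlafen and resistin family genes 10 were negative (median -0.34, and 0.07 without mouse NK1), and 2 of 14 differed between control mice, both lowest in KO1: Ly6c2 (edgeR, adjusted p = 0.0179), a monocyte and neutrophil surface antigen, and Slfn2 (adjusted p = 0.0158). Slfn2 was called in all 11 refits, and Ly6c2 in 10, with an adjusted p of 0.0539 in edgeR without lesion KO2-3. Retnla, the resistin-like gene of alternatively activated macrophages, was highest in KO1, with 57.8 CPM in NK2 and 144 CPM in NK1, against 3.64 CPM in KO2, 87.7 CPM in KO3 and 1485 CPM in KO1, and did not pass between control mice (edgeR, adjusted p = 0.109). Of its 4749 counts with NK cells 3071 lay in NK2-1, and of its 54506 control counts 45772 lay in KO1-3.

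The stretch of chromosome 9 that holds Camp, Ngp and Ltf spans 1195 kilobases with 51 genes between its ends, the member Ngp aside. Of the 22 tested, 14 had negative log2 fold changes, against 51.7% of 16920 genes, with a median of -0.13, near that of all genes. Between control mice 0 of 20 were called, against 2.71% of 14654 genes, and nothing is read from that 0.

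Markers of other blood cells were read beside the set. The 9 red blood cell markers summed to 1113 CPM in NK2 and 716 CPM in NK1, against 4887 CPM in KO2, 2615 CPM in KO3 and 387 CPM in KO1. All 9 had negative log2 fold changes (median -1.43), against 51.7% of 16920 genes. KO1 was lowest among controls for all 9, against 25.5% of these genes. Between control mice 0 of 9 were called in edgeR, against 2.71% of 14654 genes. That count rose without the lesions of high mt-Rnr2, a fit that leaves KO3 with 1 lesion. The 0 is therefore not read as likeness of the control mice in these markers. The lesions overlapped, from 255 to 2192 CPM with NK cells and from 125 to 9200 CPM in controls. The 8 platelet markers summed to 12.4 CPM in NK2 and 10.9 CPM in NK1, against 25.0 CPM in KO2, 16.4 CPM in KO3 and 11.6 CPM in KO1. As with the neutrophil genes, KO2 and KO3 held the highest sums of red blood cell markers, and the part of blood in these results was not tested.

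Macrophage and monocyte markers did not follow that order. Over 12 markers the sum was 608 CPM in NK2 and 446 CPM in NK1, against 536 CPM in KO2, 350 CPM in KO3 and 334 CPM in KO1, and 10 of 12 had positive log2 fold changes (median 0.35, and -0.19 without mouse NK2). Between control mice 1 of 12 passed, Ccr2 (edgeR, adjusted p = 0.0373), lowest in KO3 and called in 3 of 11 refits. Of 9 eosinophil markers, the granule genes Epx and Ear6 were at 0 in every lesion, and the summed level ran from 0 to 27.1 CPM with NK cells and from 1.31 to 18.3 CPM in controls. Mast cell and basophil markers summed to 4.82 to 217 CPM with NK cells and 10.9 to 58.1 CPM in controls. The 12 NK cell markers summed to 23.9 CPM in NK2 and 47.7 CPM in NK1, against 2.74 CPM in KO2, 6.87 CPM in KO3 and 5.68 CPM in KO1. The value of NK1 came from NK1-1, at 75.7 CPM, while NK1-2 and NK1-3, at 8.78 and 4.82 CPM, lay within the control range of 0.958 to 15.9 CPM.

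**Figure D5:**
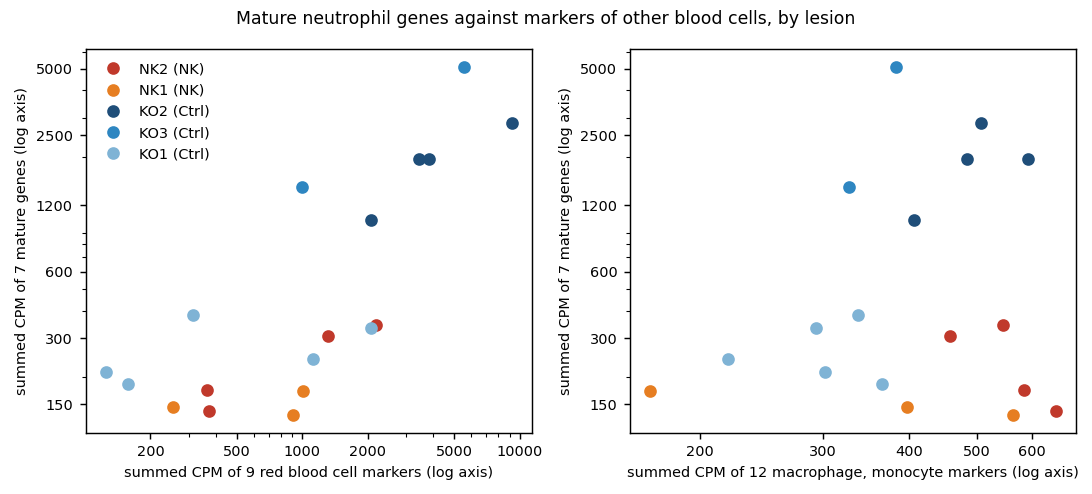
Summed CPM of the 7 mature genes in each lesion (log axis) against summed CPM of 9 red blood cell markers and of 12 macrophage and monocyte markers (log axes), with colours for NK2 and NK1 and for the controls KO2, KO3 and KO1. The 6 lesions of KO2 and KO3, at 1032 to 5113 CPM, stand above all others, which reach at most 383 CPM, while their red blood cell markers (993 to 9200 CPM) and macrophage markers (327 to 593 CPM) overlap those of the other lesions.

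Lung tissue in the captured lesions was read in the same way, beside the shares over all genes. Those were 51.7% of 16920 with negative log2 fold changes and 2.71% of 14654 called between control mice. The 10 endothelial markers summed to 41.8 to 369 CPM with NK cells and 103 to 401 CPM in controls, all 10 with negative log2 fold changes (median -0.55, and 0.14 without mouse NK1), and 2 of 10 differed between control mice, Calcrl (edgeR, adjusted p = 0.00344) and Ptprb (adjusted p = 0.0209), both lowest in KO1. Calcrl was called in all 11 refits and Ptprb in 7. The 9 alveolar markers summed to 243 to 3760 CPM with NK cells and 703 to 3676 CPM in controls, with 8 negative (median -0.51), and 1 of 9 differed between control mice, the surfactant gene Sftpb (adjusted p = 0.0488), lowest in KO2 and called in 2 of 11 refits. The 8 tumour epithelium markers were evenly divided, with 4 negative (median 0.17, and -0.69 without mouse NK1), and none differed between control mice. The part of lung tissue in the neutrophil values was not tested.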

How the data were processed

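RNA of 18 lung lesions cut by laser from 5 mice was sequenced. The authors' deposited values are expected counts per gene and a table of normalized values on a log2 scale, used here only as an alternative. The submitters' processing notes name bcl2fastq 2.17, STAR, RSEM 1.2.28, DESeq2 and mm10. How that table was scaled and how strand was handled are not given in the sources used here. The deposited annotation gives animal numbers that match the lesion titles for all 5 animals, and 49326 of 49585 genes had a symbol and 26314 had a count. No pair of lesions from 1 mouse was a duplicate (26 pairs, lowest chi-square 22 per degree of freedom).

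Expected counts were rounded to whole numbers and, for mice given NK cells against control mice, summed over the lesions of each mouse. That comparison, the 3 control mice (11 lesions) and NK2 over NK1 (7 lesions) were fitted with edgeR 4.0.16 in R 4.3.3 (TMM scaling, filterByExpr with a minimum count of 10 and total of 15, robust quasi-likelihood F test). P-values were adjusted by Benjamini-Hochberg over all tested genes, with a threshold of 0.05. The edgeR biological coefficient of variation was 64.9% over mice, and depth and the number of mice limit precision. The labels give lesions as separate samples of a mouse, so tests over lesions measure spread within mice. CPM for correlations had a prior count of 2 on the log2 scale, and lengths and coordinates are those of GENCODE M21 (GRCm38). DESeq2 1.42.0, limma 3.58.1, other filters, libraries without mt-Rnr2, a replicate block and refits without each mouse or lesion served as alternatives.

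The 10 genes and all lists were chosen with earlier results of these data known. Named genes were the 10 members, the called genes of each list or otherwise its 3 genes of highest count, and the 10 nearest genes by Spearman's rho. Mpo, Elane, Ctsg, Prtn3, Bpi, Lyz2, Stfa2, Stfa3, Csf3, Cxcl2, Cxcl12, Il17a, Cebpe, S100a6, Retn, Retnla and Krt15 were named after their values were seen. Of the genes this rule names, 2 are not reported here.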

Additional observations from a re-analysis of the deposited data

Results flagged for a closer look

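In 7 of 40 groups of lesions the highest or lowest value of a gene lay far from the rest by Dixon's ratio of gap to range. Chance alone exceeds the limit used in about 1 group in every 20 where values are normally distributed. That rate need not hold here, since CPM are skewed and some groups share lesions. Ltf in NK1-1 stood at 756 CPM among the 7 lesions with NK cells, with the next at 9.64 CPM. Ly6g in NK2-2 stood at 2.60 CPM both among the 7 lesions with NK cells and among the 4 of NK2, with the next at 0.704 CPM. Among control lesions, Ltf in KO1-3 was at 90.2 CPM with the next of KO1 at 19.2 CPM, and S100a8 in KO1-4 was at 70.6 CPM with the next at 39.3 CPM. Lesion KO2-3 was far from the other 3 of KO2 for Ngp (85.0 CPM, next 17.9 CPM) and for Ltf (184 CPM, next 66.3 CPM), but not for Camp, whose highest lesion was KO2-2. The causes of these values were not tested.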

How the results depend on the processing

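With mice given NK cells against control mice, edgeR called 0 genes, DESeq2 39, edgeR without a filter 224 and limma 1 on the authors' table, and refits lacking 1 mouse or lesion called 0 to 4, the highest without mouse NK2. Between control mice the count of 397 became 2197 in DESeq2 and 671 without a filter, and refits lacking 1 lesion gave 104 (without KO2-2) to 2143 (without KO3-1). Between NK2 and NK1 the count of 0 became 987 in DESeq2 and 64 without a filter, and refits lacking 1 lesion gave 0 to 102 (without NK1-3). The 9 members other than Ltf kept the sign of their log2 fold change under all 30 alternatives. Ltf, at 0.58, turned to -3.63 with equal weight for each lesion, -2.57 in the authors' table and -4.70 without the lesions of over 40% mt-Rnr2, a setting chosen after seeing the data. Refits of Ltf lacking 1 mouse or lesion ran from -5.41 to 1.78, with -5.37 without mouse NK1 and -0.24 without KO3-1. Camp, at -6.45, was -8.90 without mouse NK2 and -3.50 in the authors' table, and Ly6g, at -3.29, was -5.21 and -1.81 in the same settings. The cause was not tested.

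Mice NK1 and KO1, and NK2 and KO2, share a number. With it as a replicate block edgeR called 7 of 16920 genes (0.0414%), Camp among them, and Ltf had a log2 fold change of -0.59. Deviations of same-numbered mice from their group mean correlated at 0.121 and 0.348, but the labels tie nothing to the numbers and there are only 2 such pairs. With 2 mice given NK cells, the deviation of NK2 is that of NK1 with its sign turned. The 2 values are thus not separate checks, and nothing is read from them.

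With 2 mice against 3, a difference between treatments cannot be told apart from one between these mice. All 3 lesions of NK1 had over 40% mt-Rnr2, so that mouse and that share cannot be told apart either. Camp, Ngp and Ly6g had few counts in NK1.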
